A study of Mus musculus with 4 samples.

Results

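Secreted protease inhibitors and other products of glandular epithelium were followed in uterus and ovary from pregnant mice, under hypoxia (low oxygen) or normoxia (normal oxygen). The 7 genes, Spink1, Spink12, Wfdc3, Guca2a, Guca2b, Sult1d1 and Ttr, were chosen by symbol from gene lists that the authors had already restricted by fold change, so their fold changes chose them and are described without a test. Of the 903 genes listed in the uterus 4 were members, and of the 854 listed in the ovary 4 were members, with Spink12 in both lists. Of all annotated protein-coding genes, 1.54% were on the uterus list and 1.01% on the ovary list, shares from which nothing is read because listing chose the members. Over both tissues the lists held 1696 distinct genes. A gene was listed only where its absolute log2 fold change was at least 2, and genes just outside that threshold are not in the lists. The members nearest to the threshold were Spink1 in the uterus, at -2.12, and Spink12 in the ovary, at 2.251, in the authors' deposited tables.

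The mice were exposed to low oxygen at 72 hours after fertilization, and tissues were taken at embryonic day 3.5, shortly before implantation. The 4 groups were uterus under hypoxia, uterus under normoxia, ovary under hypoxia and ovary under normoxia, and strain, age and oxygen level are given by no label. RNA of 3 samples was pooled for each group and sequenced as 1 library, so nothing below could be checked against replicates. The deposited lists do not say which condition was divided by which, and a positive value is taken to mean higher in hypoxia, so every direction rests on that assumption.

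On GRCm38, Spink1 lies on chromosome 18 from 43728082 to 43737557 and Spink12 on the same chromosome from 44104407 to 44108543, 367 kb apart. Ttr lies on chromosome 18 from 20665280 to 20674321, and Wfdc3 on chromosome 2 from 164731180 to 164745931. Guca2a, from 119637704 to 119639471, and Guca2b, from 119656607 to 119658954, are neighbours on chromosome 4 that point towards each other with 17.1 kb between them. Sult1d1 lies on chromosome 5 from 87554645 to 87569027. All 7 genes are annotated as protein coding. Their longest coding sequences run from 80 residues in Spink1 to 295 in Sult1d1, with a median of 130, against a median of 391 over 21951 protein-coding genes of GENCODE M21. At 295 residues or fewer stood 30.3% of those coding genes.

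Uterine glands lie beneath the luminal epithelium and release proteins into the uterine lumen, among them inhibitors that bind and block serine proteases. The Kazal-type inhibitors of the Spink family and the inhibitors with whey acidic protein (WAP) domains are 2 such families. Guanylin and uroguanylin, the products of Guca2a and Guca2b, are peptide ligands of guanylate cyclase C, which controls salt and water secretion in the intestine. Transthyretin, the product of Ttr, carries thyroxine and, through retinol-binding protein, vitamin A. Sult1d1 encodes a sulfotransferase that acts inside the cell on catecholamines and related small molecules, so the name of secreted product does not apply to it. In bulk tissue, fewer cells of a type and less RNA per cell cannot be told apart.

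The sequence before the transcription start, the promoter, was available for 4 members in RefSeq's promoter table for GRCm38.p6. The 250 bases before the start are shown for the WAP gene with the largest read support in the uterus and for the neighbouring guanylin pair, and 30 bases past the start for Sult1d1. Capitals mark the forkhead motif TGTTTAC, on either strand, the sequence class bound by the gland regulator FOXA2.
Wfdc3, chr2:164743268-164743517, minus strand: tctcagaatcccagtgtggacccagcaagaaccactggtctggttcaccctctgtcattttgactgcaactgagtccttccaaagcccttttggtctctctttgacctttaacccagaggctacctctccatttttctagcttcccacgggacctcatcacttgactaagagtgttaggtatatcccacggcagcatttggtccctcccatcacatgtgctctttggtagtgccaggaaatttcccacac
Guca2a, chr4:119637482-119637731, plus strand: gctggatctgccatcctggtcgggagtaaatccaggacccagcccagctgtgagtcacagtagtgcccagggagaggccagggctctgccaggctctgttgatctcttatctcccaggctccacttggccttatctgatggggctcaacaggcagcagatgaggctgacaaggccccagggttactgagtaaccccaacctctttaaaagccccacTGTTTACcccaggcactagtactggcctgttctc
Guca2b, chr4:119658946-119659195, minus strand: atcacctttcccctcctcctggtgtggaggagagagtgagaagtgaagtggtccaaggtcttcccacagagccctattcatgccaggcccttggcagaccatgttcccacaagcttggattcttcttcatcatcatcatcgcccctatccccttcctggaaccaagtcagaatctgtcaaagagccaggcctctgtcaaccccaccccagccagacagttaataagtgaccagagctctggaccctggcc
Sult1d1, chr5:87568957-87568986, minus strand: cattttcagtagGTAAACAggggagcggcc

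The motif began 34 bases before the start in Guca2a and 33 bases past it in Sult1d1, there on the opposite strand. In 32851 promoters of the same length, 250 bases before to 50 past the start, 3.65% held TGTTTAC. The related TATTTAC, held by 3.04% of promoters, was in none of the 4 windows. The full palindromic estrogen response element, the full progesterone and glucocorticoid response element and the hypoxia response core ACGTG were not in these 4 windows either, and were in 0.07%, 0.00913% and 19.6% of all promoters. These matches describe letters in a window and carry no information on binding. The starts used for all 4 genes are RefSeq's and lie inside the GENCODE gene spans, furthest inside for Wfdc3. All 250 bases before the start of Wfdc3 are therefore within the gene as GENCODE annotates it, and some of those before the starts of Guca2a, Guca2b and Sult1d1.

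The fold changes could be read as ratios of whole numbers, called terms, once 1 factor shared by all genes of a tissue was divided out, 0.995 for uterus and 0.952 for ovary. Every listed gene fitted within a relative tolerance of 5e-14. The terms were taken as reads plus 1, which no source states, and they are fully reduced fractions, so any common factor of the 2 libraries is lost and the reads can be more numerous. Intervals are exact Clopper-Pearson intervals of 95% from the terms less 1, on the fold in the direction given, and cover counting error only. A fold against 0 reads was computed against an assumed floor of 3 reads per library, and assumes that no common factor was lost.

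Among the protease inhibitors in the uterus, Spink1 and Wfdc3 were lower in hypoxia and Spink12 was higher. Spink1, also known as the pancreatic secretory trypsin inhibitor, had terms of 107 in hypoxia and 464 in normoxia. Its log2 fold change in the authors' deposited table was -2.12, that is 4.36-fold lower in hypoxia with a counting interval of 3.55 to 5.47. The normoxia library therefore held the larger number, and 25 of 903 listed genes (2.77%) had a sum of terms as large or larger.

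Wfdc3, which encodes a protein with WAP four-disulfide core domains, had terms of 142 in hypoxia and 659 in normoxia. In the authors' deposited table its log2 fold change was -2.22, which is 4.66-fold lower in hypoxia with an interval of 3.90 to 5.66. Wfdc3 had the largest sum of terms of the members, and 19 uterus genes (2.10%) reached or passed it. By size of change Spink1 and Wfdc3 stood at ranks 264 and 230 of the 412 lower genes.

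Spink12, another Kazal-type inhibitor gene, had uterus terms of 72 in hypoxia and 11 in normoxia, the opposite direction to Spink1 on the same chromosome. The authors' deposited table gave 2.70, a 6.51-fold higher value in hypoxia with an interval of 3.63 to 15.4. The interval is wide because the normoxia term is small. In the ovary Spink12 was listed again as higher, at 2.251 in the authors' deposited table, but on terms of 5 and 1. On the reading used here that is 4 reads against 0, which set against the floor gives a fold of 1.27, and the counting interval starts at 0.629 and so includes a ratio of 1. The ratio 5 to 1 was shared by 116 ovary genes, this member included. Spink12 was thus the 1 member among the 61 genes listed in both tissues, which are 6.76% of the uterus list and 7.14% of the ovary list, and 25 of those 61 were higher in both.

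**Figure D1:**
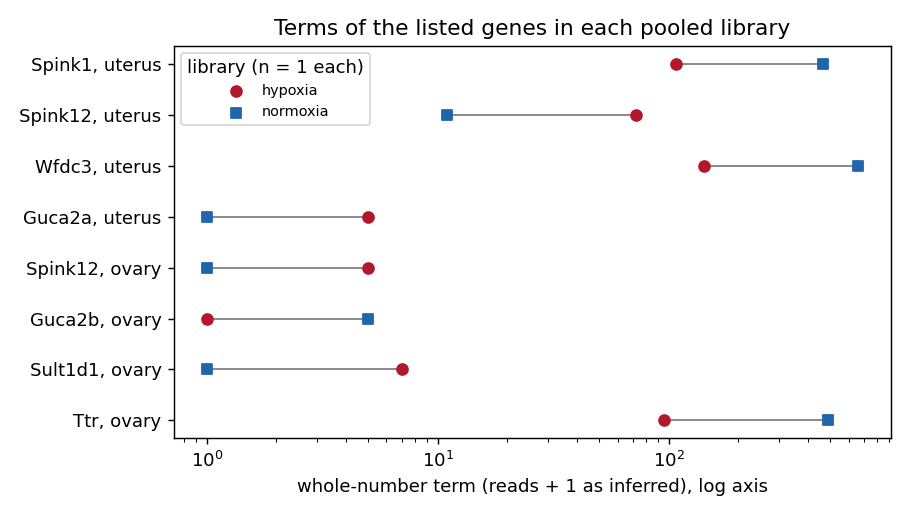
Whole-number terms of each listed member on a log axis, with a circle for the hypoxia library, a square for the normoxia library and a line joining them (1 pooled library each). Spink1, Wfdc3 and Ttr have terms near 100 or above in both libraries, while Guca2a, Guca2b, Sult1d1 and the ovary value of Spink12 rest on a term of 1.

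Of the guanylin peptides, Guca2a was listed in the uterus and Guca2b in the ovary, in opposite directions and both on few reads. Guca2a had uterus terms of 5 in hypoxia and 1 in normoxia and a log2 fold change of 2.32 in the authors' deposited table. Set against the floor, its 4 reads in hypoxia give a fold of 1.33, and the interval for the fold starts at 0.657. Guca2b had ovary terms of 1 in hypoxia and 5 in normoxia and -2.39 in the authors' deposited table. Set against the floor, its 4 reads in normoxia give a fold of 1.40, with an interval that starts at 0.693. A difference between hypoxia and normoxia was therefore not detectable for either peptide at the depth these terms imply. The same ratio was found for 100 uterus genes in the case of Guca2a and for 70 ovary genes in the case of Guca2b. Neither gene was listed in the other tissue, and the size of any smaller difference there is not known.

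Sult1d1 was listed in the ovary, with terms of 7 in hypoxia and 1 in normoxia. The authors' deposited table gave 2.74, and set against the floor its 6 reads in hypoxia give a fold of 1.90. Its counting interval started at 1.12, just past a ratio of 1. This exclusion did not hold under either a wider interval or the terms themselves as reads, as given in the closing section. The ratio 7 to 1 was shared by 50 ovary genes.

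Ttr in the ovary was the member with the most reads behind it in that tissue. Its terms were 95 in hypoxia and 487 in normoxia, and the authors' deposited table gave -2.43. Its level was 5.38-fold lower in hypoxia, with an interval of 4.35 to 6.85. Of the 854 ovary genes, 18 (2.11%) had a sum of terms as large or larger. Ttr was not listed in the uterus, so a uterine difference of the listing size was not recorded for this carrier gene.

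**Figure D2:**
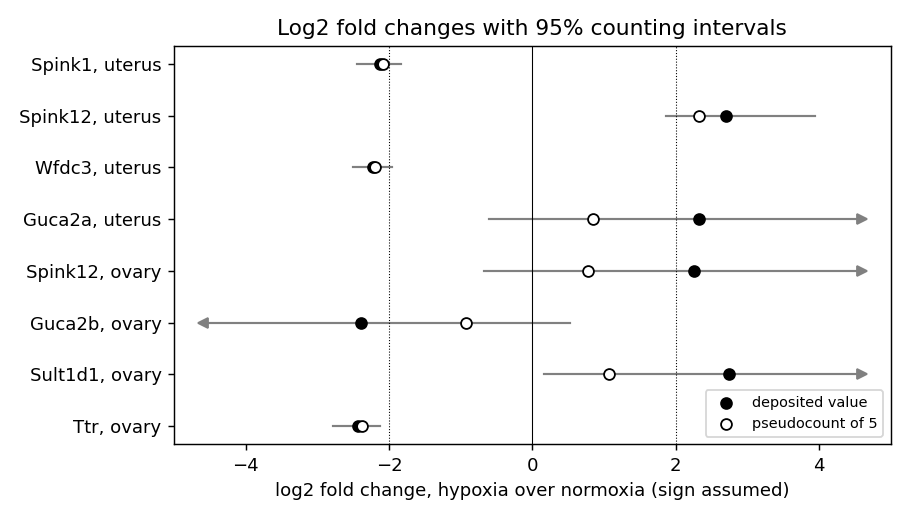
Log2 fold change of each listed member, hypoxia over normoxia with the sign assumed. Filled circles are the deposited values, open circles the values with a pseudocount of 5, lines the 95% counting intervals (arrows where there is no upper bound), and dotted lines the listing threshold of 2. Spink1, Wfdc3 and Ttr keep their place, while Guca2a moves from 2.32 to 0.84 and Guca2b from -2.39 to -0.92.

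In the uterus 3 of the 4 listed members had an interval that excluded a ratio of 1, where 54.2% of all listed genes and 69.7% of listed protein-coding genes did. In the ovary 2 of 4 did, where 48.9% of all listed genes and 57.7% of listed protein-coding genes did. By direction, 2 uterus members were higher and 2 lower, where 54.4% of listed genes were higher and 45.6% lower. Of the ovary members 2 were higher and 2 lower, where 50.7% were higher and 49.3% lower. The members were chosen from the same contrast, so nothing is read from these shares. A term of 1, found for 66.9% of uterus genes and 72.7% of ovary genes, was found for Guca2a in the uterus and for Spink12, Guca2b and Sult1d1 in the ovary.

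**Figure D3:**
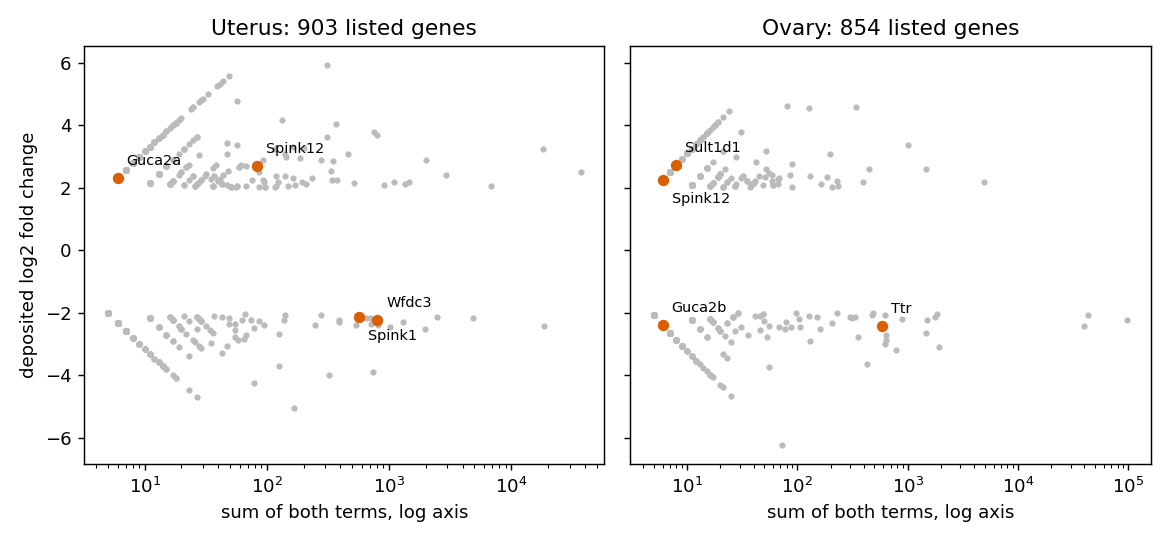
Deposited log2 fold change of every listed gene against the sum of its terms on a log axis (grey), with the members in orange. Spink1 and Wfdc3 in the uterus and Ttr in the ovary lie far to the right with changes near the threshold, and the members on few reads lie on the rays formed by genes with a term of 1.

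Genes most like a member were taken as the protein-coding genes nearest to it by the distance between log2 terms over the 2 libraries of its tissue, leaving out unnamed models (Gm and Rik symbols). For Spink1 these were Chst4, with terms of 119 and 528, and the carbonic anhydrase gene Car4, with 116 and 599, at distances of 0.24 and 0.39. For Wfdc3 they were the cytochrome P450 gene Cyp3a59, with 142 and 687, and Procr, which encodes the endothelial protein C receptor, with 131 and 684, at 0.06 and 0.13. For Spink12 in the uterus they were Veph1 and the serotonin receptor gene Htr1d, at 0.19 and 0.24. For Ttr they were the keratin gene Krt5, with 87 and 548, and Bpifb6, with 79 and 556, at 0.21 and 0.33. Members on few reads had many identical partners among these named genes, and the 2 named for each came first by alphabet. These were Actrt3 and Ankdd1a of 27 for Guca2a, Acot5 and Apela of 14 for Spink12 in the ovary, Dcpp3 and Efna3 of 13 for Guca2b, and Calcb and Cntnap5b of 9 for Sult1d1.

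Relatives of the members are set beside the share of all annotated protein-coding genes that were listed, 1.54% for uterus and 1.01% for ovary. Of 13 Spink family genes, 2 were listed in the uterus and 1 in the ovary, all of them members, and of the 11 that are not members 0 were listed in either tissue. Of 21 WAP-family genes, the uterus list held 2, 1 higher and 1 lower, and the ovary list held 1. Of the 20 that are not members, 1 was listed in each tissue. Besides Wfdc3, the uterus list held Wfdc18, at 2.66 in the authors' deposited table, from terms of 19 and 3, with an interval of 2.14 to 79.6. The ovary list held Wfdc9, at -3.07 in the authors' deposited table, from terms of 1 and 8. Wfdc9 lies on chromosome 2 with 74.6 kb between it and Wfdc3. Slpi, the secretory leukocyte protease inhibitor, and Wfdc2 were in neither list.

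The other inhibitor and protease lists are a selection and do not cover their classes. Of 37 other genes of protease inhibitor families, not each of them a secreted inhibitor, the uterus list held 2, both lower. Serpina1b, one of the alpha-1-antitrypsin copies, had -2.24 in the authors' deposited table, from terms of 13 and 61, and Serpine3 had -2.01 on terms of 1 and 4. The ovary list held 3 of the 37. Serpina1e had 2.07 in the authors' deposited table, from terms of 22 and 5, Serpine3 had 3.25 on 10 and 1, and the maspin gene Serpinb5 had -3.88 on 1 and 14. The Serpina1 genes are near-identical copies and their values are uncertain. Of 35 serine protease genes, which include possible partners of these inhibitors, 2 were listed in the uterus and 0 in the ovary. Tmprss11g, a membrane-anchored trypsin-like protease, had -3.89 in the authors' deposited table, from terms of 47 and 694, with an interval of 11.2 to 20.9 for the lower value. The kallikrein gene Klk14 had 2.80 in the authors' deposited table, from terms of 7 and 1. The gland proteases Prss28 and Prss29 were in neither list. Listed genes of these classes outside the selection, singled out after their values were seen, included A2ml1, an alpha-2-macroglobulin-like inhibitor gene, at 2.98 in the authors' deposited uterus table, from terms of 127 and 16. The protease genes Tmprss11b at -3.12, on terms of 3 and 26, and Prss41 at 2.45, on 11 and 2, were also in the authors' deposited uterus table. So were the granzyme genes Gzmd at -2.38, on 40 and 207, and Gzme at -2.11, on 7 and 30. Prss44 had -2.19 in their ovary table, on 3 and 13. These are examples, higher and lower, and not every such gene.

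Of the 12 guanylin pathway genes, each tissue listed only the 1 peptide already described. The receptor gene Gucy2c, the kinase gene Prkg2 and the chloride channel gene Cftr were in neither list. Of 23 sulfotransferase genes, the uterus list held 0 and the ovary list held 2. The second was Sult1e1, the estrogen sulfotransferase gene, at -2.07 in the authors' deposited table, from terms of 1 and 4, opposite in direction to Sult1d1, and its interval included a ratio of 1. Of 17 genes for carriers of thyroid hormone, retinol and steroids and for their receptors and deiodinases, the ovary listed Ttr alone. In the uterus Dio1, the type 1 deiodinase gene that activates thyroxine, was listed at 3.26 in the authors' deposited table, from terms of 183 and 19 and with an interval of 6.19 to 17.4. The retinol-binding protein gene Rbp4 was in neither list.

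The set of 24 uterine gland genes was drawn up to include all the members, and 4 of its 7 genes on the uterus list are members. It is not limited to glands, since it also holds general epithelial genes such as Cdh1, which is among the 12 epithelial markers used below. Of the 17 that are not members, 0 were listed in the ovary and 3 in the uterus, all higher. These were Ltf, Lcn2 and Prap1, a proline-rich acidic protein gene of the pregnant uterus. Prap1 had 3.63 in the authors' deposited table, from terms of 286 and 23, with an interval of 8.35 to 20.9. Ltf had 3.23 in the authors' deposited table on 16403 and 1740, and Lcn2 had 4.03 on 344 and 21. All 3 were higher in hypoxia, as was Spink12, while Spink1 and Wfdc3 were lower. Spink12, Spink1 and Wfdc3 are members, chosen from this same contrast, so nothing is read about gland genes from their directions. The gland set itself was drawn up with earlier results of these data known, so nothing is read from Ltf, Lcn2 and Prap1 either. The gland regulator gene Foxa2 and the gland cytokine gene Lif were in neither list.

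**Figure D4:**
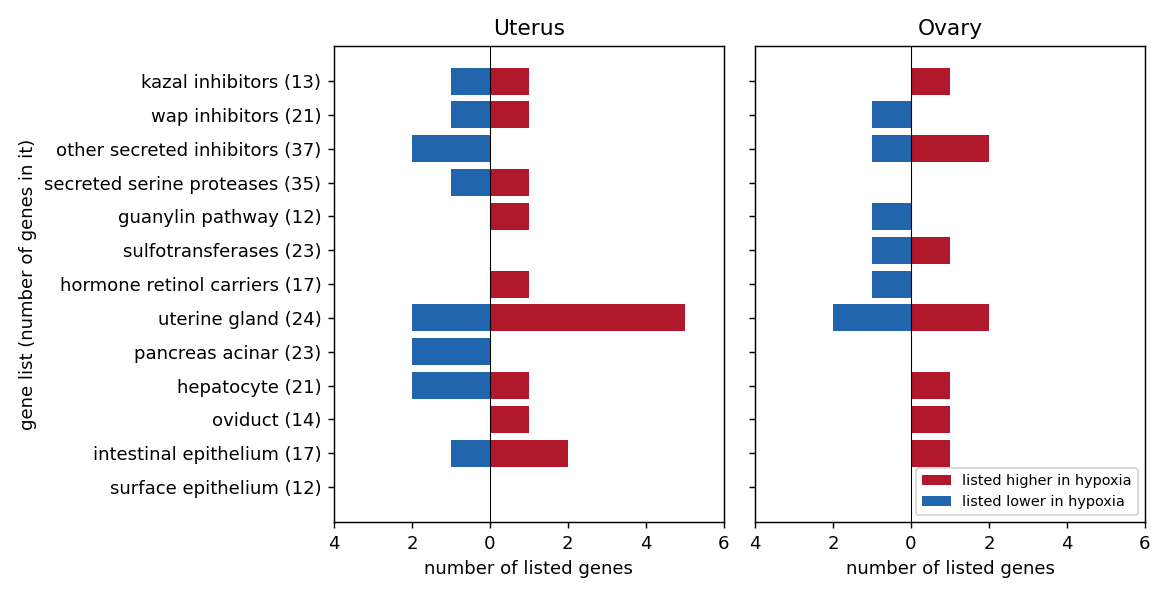
Number of listed genes in each gene list, to the right where higher and to the left where lower in hypoxia, with the size of each list in brackets. The uterine gland bar in the uterus, 5 higher and 2 lower, includes 4 members that were chosen because they are listed, and without them holds 3 genes, as many as the hepatocyte and intestinal lists.

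Several members are also products of other organs. Of 23 pancreatic acinar markers, 2 were listed in the uterus, both lower, as was Spink1. These were Cpa1, at -4.71 in the authors' deposited table, from terms of 1 and 26, and Rnase1, at -2.21 on 5 and 23. The pancreatic trypsinogen gene Prss2, the lipase gene Pnlip and the amylase gene Amy2a5 were not listed. The 23 markers are a selection that takes in Pnliprp1 but leaves out its relative Pnliprp2, which was singled out after its value was seen. The authors' deposited uterus table gave Pnliprp2 2.06, higher in hypoxia, and its terms were 46 and 11. The shared direction of Cpa1 and Rnase1 therefore depends on which genes the selection took in. Of 21 hepatocyte markers, 1 was listed in the ovary, Serpina1e, which was higher while Ttr was lower, and the albumin gene Alb was not listed. In the uterus 3 hepatocyte markers were listed, among them Cyp2e1 at 2.19 and the fetuin gene Ahsg at -2.01 in the authors' deposited table, besides Serpina1b. Of 17 intestinal markers, the uterus listed 3 and the ovary 1. In the authors' deposited uterus table, Clca1 had 2.15 on terms of 423 and 95. Tff3 had 3.32 there on 10 and 1, and Isx had -4.09 on 1 and 17. Fabp2 had 2.251 in their ovary table, on 5 and 1. Of 14 oviduct markers, the uterus listed Dnah9 at 3.58 and the ovary Ccdc153 at 2.51 in the authors' deposited tables, while the oviduct secretory gene Ovgp1 was in neither list. None of 12 epithelial markers such as Epcam and Krt8 was listed in either tissue (0 genes). The lists give no levels, so the tissue labels could not be checked against their markers, and the part of other cell types in these values was not tested.

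Along the chromosomes, within 500 kb of a member, a window chosen after the values were seen, most members had at most 1 other listed gene per tissue. Sult1d1 had 3 in the ovary, of 45 annotated genes in its window, and 0 in the uterus. These 3 were Sult1e1, 6.94 kb away, and the milk casein genes Csn2, 124 kb away, and Csn1s2a, 206 kb away. Against 55450 annotated genes of all types, the whole ovary list held 854 genes and the whole uterus list 903. Because the window was chosen on values already seen, nothing is read from the count of 3. Csn2 had 4.10 in the authors' deposited table, from terms of 18 and 1, and Csn1s2a had 4.55 on terms of 123 and 5. Sult1d1 and the caseins were higher in hypoxia and Sult1e1 was lower. Csn1s2a alone of the 4 had no term of 1. Ttr had no listed gene in its window in either tissue, among 18 annotated genes. In the uterus the window of Wfdc3 held 1 other listed gene, the long noncoding RNA gene Gm14317, at -2.95 in the authors' deposited table, from terms of 3 and 23.

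**Figure D5:**
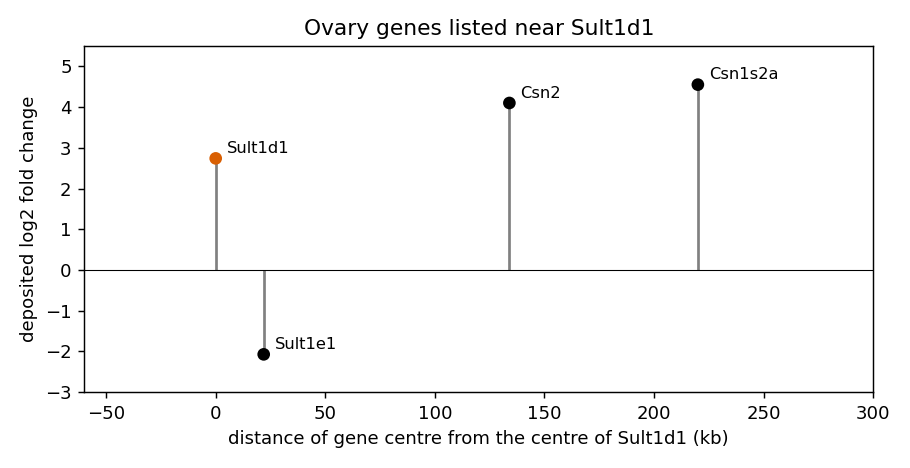
Ovary genes listed within 500 kb of Sult1d1, with the deposited log2 fold change against the distance between gene centres in kb. Sult1d1 (orange), Csn2 and Csn1s2a are above 0 and Sult1e1 is below.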

How the data were processed

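RNA was extracted with ISOGEN II, polyadenylated RNA was selected and directional libraries were made, per the labels' protocols. Per the submitters' processing notes, the tools were DESeq2 2.11.40.7, HTSeq 0.9.1, HISAT2 2.2.1 and FastQC 0.73, with build mm10. The authors deposited 1 list per tissue with log2 fold changes, per the file headers, and no levels, totals or p-values, so depth is unknown and how strand was counted is not stated. Whole-number terms were recovered from the fold changes as continued fractions. On simulated lists the lowest form of 100% of 427 uterus and 430 ovary pairs came back. Of these pairs 81.7% and 83.7% were already in lowest form, and the rest came back without their common factor. The lists were simulated as counts plus 1, so they cannot test that reading of the terms. Positions came from GENCODE M21 on GRCm38, the assembly of mm10. The members and the 13 gene lists were chosen with earlier results of these data known. Named genes were all members, the listed genes of the family lists and the gland list, up to 4 of each other list, and the 2 nearest genes. Genes near a member on the chromosome, and genes named as not listed, were singled out after the lists were seen. With 1 library a group there was no test. Alternatives were stricter thresholds, a pseudocount of 5, removal of the shared factor, doubled terms, terms read as counts and 99% intervals. Python 3.11.15, NumPy 2.4.6, pandas 2.3.3, SciPy 1.17.1 and matplotlib 3.10.9 were used.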

Additional observations from a re-analysis of the deposited data

Results flagged for a closer look

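Serpine3, a serpin gene named among the other genes of inhibitor families, had a uterus value of -2.01 and an ovary value of 3.25 in the authors' deposited tables. It is given here because its tissue values have opposite signs, a difference that was not tested, and 21 of the 61 genes listed in both tissues have opposite signs. Its uterus value rested on terms of 1 and 4, and the counting interval for it held a ratio of 1, and its ovary value on terms of 10 and 1.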

How the results depend on the processing

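The number of listed members, 4 in each tissue, fell to 2 in the uterus at an absolute log2 fold change of 9/4. All 4 ovary members passed 9/4, but Spink12 only just, at 2.251, and Spink12, Guca2b and Sult1d1 passed it on a term of 1. At an absolute log2 fold change of 2.5 the number was 1 in each tissue. With a pseudocount of 5 and the threshold of 2, 3 members passed in the uterus and 1 in the ovary. Members with a counting interval that excluded 1 numbered 3 in the uterus under all settings tried. In the ovary they numbered 2, and 1 with the terms read as counts or with 99% intervals. The pseudocount of 5, the doubled terms and the removal of the shared factor could not reverse a sign, so they bear only on size. All 8 values stayed inside their counting intervals under each of these 3 settings. For Guca2a, Spink12 in the ovary and Guca2b this was fixed in advance, because their intervals include a ratio of 1 and have no upper bound. It therefore does not show that their size is stable. With a pseudocount of 5, Spink1, Wfdc3, Spink12 in the uterus and Ttr had -2.08, -2.19, 2.33 and -2.38, and Guca2a, Spink12 in the ovary, Guca2b and Sult1d1 had 0.84, 0.78, -0.92 and 1.07. These last 4 rest on a term of 1, so the added 1 sets their size. No paired analysis was possible because each group is 1 pooled library. Depth is not known beyond what the terms imply, and a common factor lost from the terms would narrow the intervals.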
